A study of Mus musculus with 6 samples.

Results

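Vegfa and 8 other angiogenic factors were examined in B16F10 cells, an established line of mouse melanoma. The 9 genes (Vegfa, Vegfb, Vegfc, Pgf, Adm, Nrp1, Nrp2, Angpt1 and Edn1) were found by their symbols among 27179 genes, and each matched 1 gene. The list was chosen from a measured value, the change of Vegfa in the authors' comparison of both treatments, and the other 8 genes were added for their role. RNA had been sequenced from 3 libraries of cells treated with 0.01% ozonated olive oil (OZO) and from 3 libraries treated with 0.01% olive oil without ozone (OLO), each for 6 h. The genotype given for all cells was wild type. The values described here are the means over the 6 libraries, OLO and OZO together. The fold changes and p-values of OZO against OLO are the authors' own comparison. Beyond the choice of genes they were not used, so no difference between the treatments is reported. Values of single libraries were not used, so a mean stands without a standard deviation, and a read count given below for 1 library was worked out from the mean, without knowing which library it was.

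Blood vessels grow towards cells that secrete angiogenic ligands. VEGF-A acts mainly through VEGFR2 (Kdr) on endothelial cells and also binds VEGFR1 (Flt1), VEGF-B and placental growth factor (Pgf) bind VEGFR1, and VEGF-C acts through VEGFR3 (Flt4) on lymphatic vessels. Neuropilins (Nrp1 and Nrp2) are co-receptors that bind both VEGF ligands and class 3 semaphorins, and with plexins they form the semaphorin receptors. Angiopoietin 1 (Angpt1) activates the TIE2 receptor (Tek) and steadies vessels, adrenomedullin (Adm) is a vessel-dilating peptide, and endothelin 1 (Edn1) constricts vessels. Several of these genes, Vegfa and Adm among them, are known to be induced in low oxygen, through binding of hypoxia-inducible factors to a short DNA motif with the core ACGTG or GCGTG.

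Levels were given as CPM, read counts scaled to a common library size, the mean being taken on the log2 scale with 0.5 reads added to each count, so that a CPM below is a geometric mean. Genes without reads share the lowest value, from which the geometric mean of the library sizes was 19641946 reads. With the added 0.5 included, 1 CPM stood for 19.6 reads per library. The reads per library given below for single genes have the 0.5 taken off. Of the 27179 genes, 21154 had reads and 11878 (43.7%) reached 1 CPM. All 7 melanocyte markers (Pmel, Tyr, Tyrp1, Dct, Mlana, Mitf and Sox10) were present, from 109 to 7052 CPM, whereas the means of the 6 endothelial markers lay between 0.031 and 1.21 CPM. The highest of these, Pecam1, had a geometric mean of 23.3 reads per library but an uneven spread, since its mean requires at least 464 reads in 1 library and at least 638 in all (how such limits follow from a mean is explained with Kdr below). Cdh5 had reads in at most 3 libraries, with at least 11 in 1 of them, and Tek had at least 39 reads in 1 library and at least 84 in all. Which libraries these were is not known, and their part in the levels of the members was not tested. The markers of other cell types were also low, with at most 3.28 CPM for fibroblast, 5.47 CPM for immune cell and 0.037 CPM for keratinocyte markers.

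The regions before the genes are shown first for the most abundant factor and for the factor without a read. Sequences are from RefSeq (GRCm38.p6) and run 5′ to 3′ on the strand of the gene up to the base before the annotated start of transcription. Capitals mark, on either strand, ACGTG or GCGTG and also GGGCGG, the letters of the GC box bound by SP1. The Vegfa region is chr17:46032378-46032627 on the minus strand and the Edn1 region is chr13:42301226-42301475 on the plus strand.
Vegfa: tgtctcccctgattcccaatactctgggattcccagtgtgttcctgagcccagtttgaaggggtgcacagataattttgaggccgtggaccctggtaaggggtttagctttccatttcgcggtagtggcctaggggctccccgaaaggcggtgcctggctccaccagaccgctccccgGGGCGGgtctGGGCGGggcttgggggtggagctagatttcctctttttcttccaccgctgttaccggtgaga
Edn1: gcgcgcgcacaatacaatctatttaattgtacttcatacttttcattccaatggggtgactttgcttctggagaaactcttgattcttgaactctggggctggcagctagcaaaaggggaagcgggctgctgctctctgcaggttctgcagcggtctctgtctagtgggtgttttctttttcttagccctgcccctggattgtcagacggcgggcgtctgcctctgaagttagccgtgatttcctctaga

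Before the start of Vegfa the letters GGGCGG occurred at 2 places, beginning 72 and 62 bases upstream, and neither ACGTG nor GCGTG was found there. None of these motifs was found in the 250 bases before Edn1. For both genes, sequence farther upstream was not searched, so these windows do not show whether a motif lies there. The window of Vegfa (250 bases before to 50 after the start) had a GC content of 62.0%, and that of Edn1 had 51.3%, against a median of 52.7% over the 32851 windows of 27025 genes. The first windows of the other 6 members with a window lay between 56.0% (Adm) and 75.3% (Vegfb), so that 7 of 8 were above the median. The motif counts below are set against all genes, whose windows are less rich in GC, and the part of GC content in them was not tested.

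ACGTG was found in a window of 2 of the 8 members that matched the RefSeq windows, Vegfa and Edn1, whereas 21.8% of all genes held it. Angpt1 was not among the 8. In Vegfa it lay in a second window, which belongs to a start inside the gene, at chr17:46025370-46025374. GENCODE M21 places these bases in a coding exon. In Edn1 it lay at chr13:42301497-42301501, in the untranslated part of the first exon, beginning at base 22 after the start. Both matches, in capitals with 12 bases on either side, are on the opposite strand and so read CACGT.
Vegfa, coding exon: ggagtgcgtgccCACGTcagagagcaaca
Edn1, untranslated exon: tatctctggctgCACGTtgcctgtgggtg

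The related letters GCGTG were found in windows of 6 of the 8 members (Vegfa, Vegfb, Pgf, Adm, Nrp1 and Nrp2), against 35.2% of all genes. By GENCODE M21 the matches of Vegfb, Adm and Nrp2 lay before the gene, whereas that of Vegfa lay in a coding exon (in its second window), that of Nrp1 in an intron and that of Pgf in an untranslated exon. With either form the count was 7 of 8, and 46.7% of all genes. Vegfc held neither form. Vegfb, Adm and Nrp2 each held GCGTG at 2 places. In Adm, a gene known for its response to low oxygen, both were on the opposite strand, at chr7:110627567-110627571 and chr7:110627603-110627607. They begin 90 and 54 bases before the start and are shown with their flanks.
Adm, farther match: tttagaagcaagCACGCtggagagggagg
Adm, nearer match: ggcaaatctgacCACGCccaccgtccgcc

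GGGCGG was found in 7 of the 8 members (all but Edn1) and in 38.2% of all genes, and TATAAA in none of the 8 and in 15.7% of all genes. These letters were searched on both strands of each window, and a match is a description of the sequence and not a measured binding site. Windows ended 50 bases after the annotated RefSeq start, and whether that start is the one used in these cells was not tested. The motifs GGGCGG and TATAAA were chosen after the levels were seen.

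Among the ligands, Vegfa was expressed strongly. Its mean level was 195 CPM (log2 CPM 7.61), or 3828 reads per library, which was rank 1088 of the 27179 genes. Both treatments enter this mean, and Vegfa was chosen for its change between them, so its level and rank are not independent of that choice. Without division by length it lay 1.12-fold above Nrp2, a ratio with no error between libraries. It lies on chromosome 17 of GRCm38 from 46016993 to 46032369 on the minus strand, and no other annotated gene overlaps it. GENCODE M21 lists 13 transcripts of Vegfa, which a count per gene does not separate. Kmt2a, a histone methyltransferase, was the gene just above it in mean level (195.1 CPM), and Srrt, a factor of RNA processing, was just below (194.8 CPM).

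The other VEGF ligands were lower. Vegfb (chromosome 19, 6982473 to 6987651, minus strand) had 26.3 CPM, or 516 reads per library. Vegfc (chromosome 8, 54077606 to 54187096, plus strand) had 7.40 CPM, or 145 reads. Pgf (chromosome 12, 85166635 to 85177790, minus strand) had 1.92 CPM, or 37.2 reads. Thus 4 of the 5 VEGF ligands reached 1 CPM, and the fifth, Vegfd, which is not a member, had 0.28 CPM or 5.02 reads per library.

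**Figure D1:**
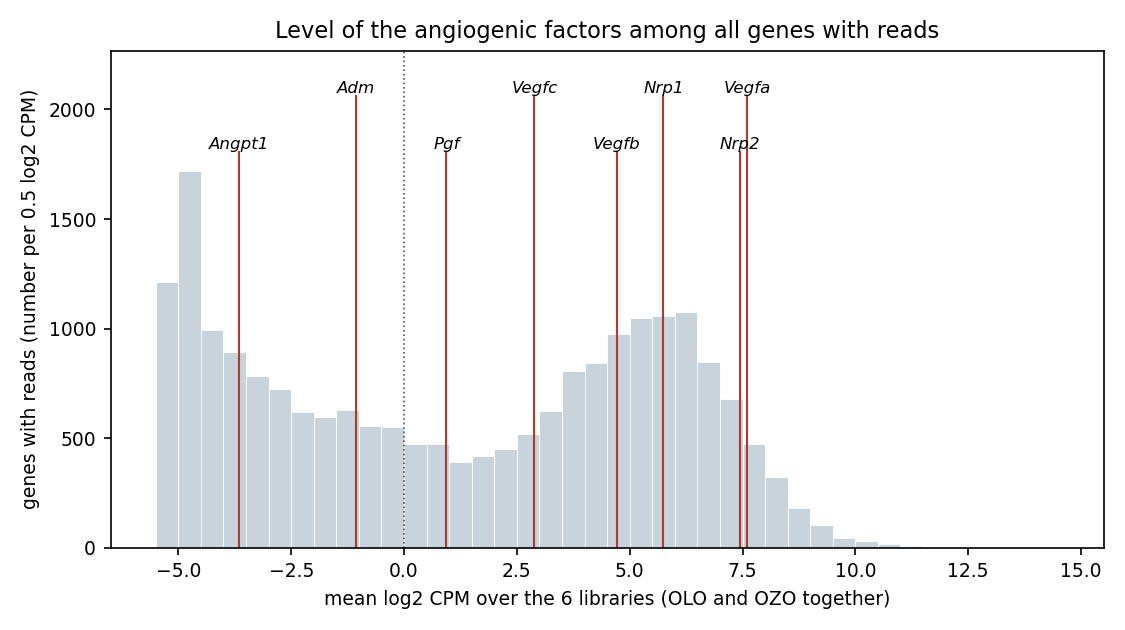
Histogram of the mean log2 CPM over the 6 libraries (x axis) for the genes with reads (y axis, number of genes per step of 0.5), with a line at each of the 8 members with reads and a dotted line at 1 CPM. Vegfa (7.61) and Nrp2 (7.44) lie on the right flank of the expressed genes, and Adm (-1.07) and Angpt1 (-3.65) lie below 1 CPM. Edn1 had no read and is not drawn.

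Both neuropilins were expressed. Nrp2 (chromosome 1, 62703285 to 62818695, plus strand) had 174 CPM, or 3413 reads per library, and Nrp1 (chromosome 8, 128358604 to 128503363, plus strand) had 53.7 CPM, or 1055 reads. A microRNA gene, Mir1903, overlaps an exon of Nrp1 on the same strand. Of the 5 plexins listed, which pair with neuropilins, 4 reached 1 CPM, with Plxna1 at 286 CPM and Plxnd1 at 181 CPM as the most abundant, and Plxna2 had 0.62 CPM. Among the 7 class 3 semaphorins, 4 reached 1 CPM, led by Sema3b at 40.5 CPM. Sema3a was close to absent, with a mean that allows either 1 and 3 reads in 2 libraries or 10 reads in 1 library.

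The signalling receptors for the VEGF ligands were low, and 0 of 3 reached 1 CPM. Flt4 was detected just under that limit with 0.95 CPM, or 18.2 reads per library, with at least 56 reads in 1 library and at least 132 in all, and Flt1 had 0.18 CPM, or 3.04 reads. For Kdr the mean corresponds to 2 reads in each of 2 libraries or to 12 reads in 1 library, with none in the rest. Such statements rest on whole reads, because the mean fixes the product over the libraries of (2 x reads + 1). Among the 10515 genes with a product under 1e+12, 100% gave an odd whole number within 0.05, as counts of whole reads in 6 libraries must. The product limits the read counts, often without fixing them, and it does not show in which library, nor in which treatment, reads were counted.

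Adm, Angpt1 and Edn1, the ligands outside the VEGF family, were weak or without reads. Adm (chromosome 7, 110627661 to 110629820, plus strand) had 0.48 CPM, or 8.88 reads per library, and its product requires at least 55 reads in all 6 libraries together. An antisense gene, Gm28863, lies on the opposite strand of Adm without sharing an exon. For its receptor, Calcrl had 11.2 CPM and the partner Ramp2 had 2.01 CPM, whereas Ramp3 had 3.47 reads per library and Ramp1 had 3 reads in a single library. The related peptide Adm2 had 2 reads in a single library.

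Angpt1 (chromosome 15, 42424723 to 42676977, minus strand) had a geometric mean of 1.07 reads per library. Its product allows reads in at most 5 of the 6 libraries and requires at least 8 reads in all. An exon of Angpt1 is overlapped by Gm17473 on the opposite strand, and whether strand was used in counting is not given in the sources used here. Angpt2, which competes with Angpt1 for TIE2 and loosens vessels, had 17.4 CPM, or 341 reads per library. The TIE2 gene Tek had a geometric mean of 8.18 reads per library, unevenly spread as described above, and Tie1 had 1 read in a single library.

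Edn1 (chromosome 13, 42301476 to 42307990, plus strand) had 0 reads in all 6 libraries. At 95% confidence this allows a level of up to 0.0255 CPM (3 reads in 6 libraries of the mean size). This limit covers counting error only. An exon of Edn1 is overlapped by Gm47118 on the opposite strand, with the same doubt about strand in counting as for Angpt1. Edn2 also had 0 reads, and Edn3, known to act on melanocyte precursors, had 1 read in a single library. The endothelin receptor of melanocytes, Ednrb, had 4.04 reads per library, and Ednra had 1 and 2 reads in 2 libraries or 7 reads in 1 library. The converting enzymes Ece1 and Ece2 had 3.41 and 4.37 CPM. Endothelin ligands and both receptors were thus below 1 CPM, and only the converting enzymes, 2 of the 7 genes of this list, were above it.

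**Figure D2:**
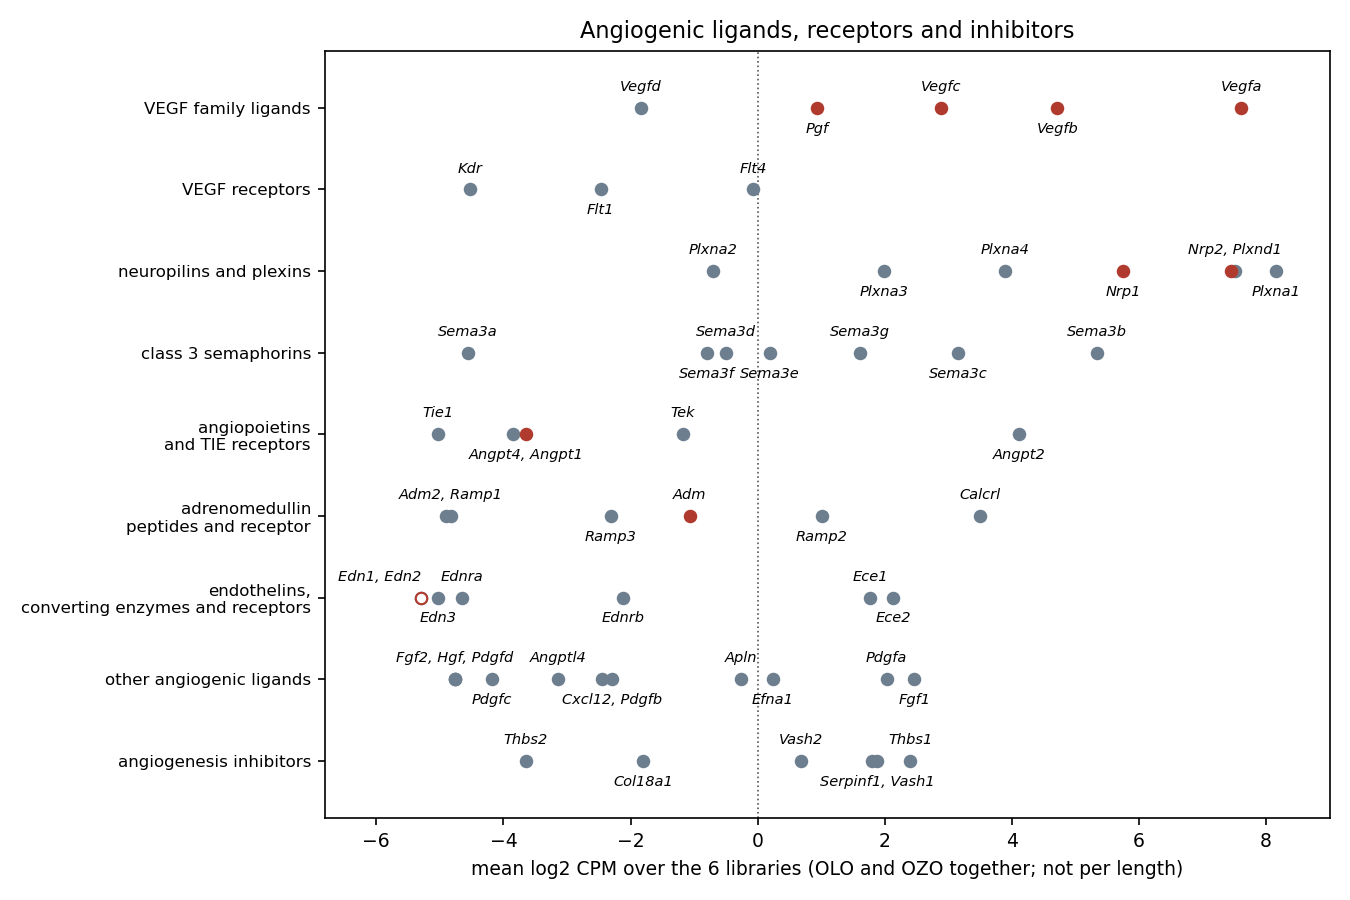
Mean log2 CPM over the 6 libraries (x axis, not divided by length) for each gene of the 9 lists (rows), members in red and other genes in grey (Edn2 lies under Edn1). The dotted line marks 1 CPM and open circles mark genes without reads. Of the VEGF ligands 4 of 5, and of the neuropilins and plexins 6 of 7, lie to the right of the line, whereas the 3 VEGF receptors lie to its left. The row of angiogenesis inhibitors also holds Vash2, which is not counted as an inhibitor in the text.

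To compare levels between genes, the CPM was divided by the length of all exons of a gene in kb. Vegfa remained the highest member at 45.5 CPM per kb, above 95.2% of the 19227 genes with reads and a length. Vegfb followed at 16.4 CPM per kb, Nrp2 at 14.7 and Nrp1 at 5.49 CPM per kb. Vegfc had 3.02, Pgf 0.66 and Adm 0.29 CPM per kb, against a median of 1.47 CPM per kb over the genes with reads. Per length, Vegfa was 2.78-fold higher than Vegfb, 15.1-fold higher than Vegfc and 68.9-fold higher than Pgf. Nrp2 was 2.67-fold higher than Nrp1. These ratios have no error between libraries, and the length used changed them. Over the exons, the longest transcript and the coding length, the ratio of Vegfa to Vegfb ranged from 2.75 to 3.92, that to Vegfc from 15.1 to 27.9 and that to Pgf from 42.0 to 68.9. The ratio of Nrp2 to Nrp1 ranged from 1.75 to 3.21. Vegfb and Nrp2 changed places with the length used, and the order of the other 6 members with reads did not change over the 3 lengths.

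**Figure D3:**
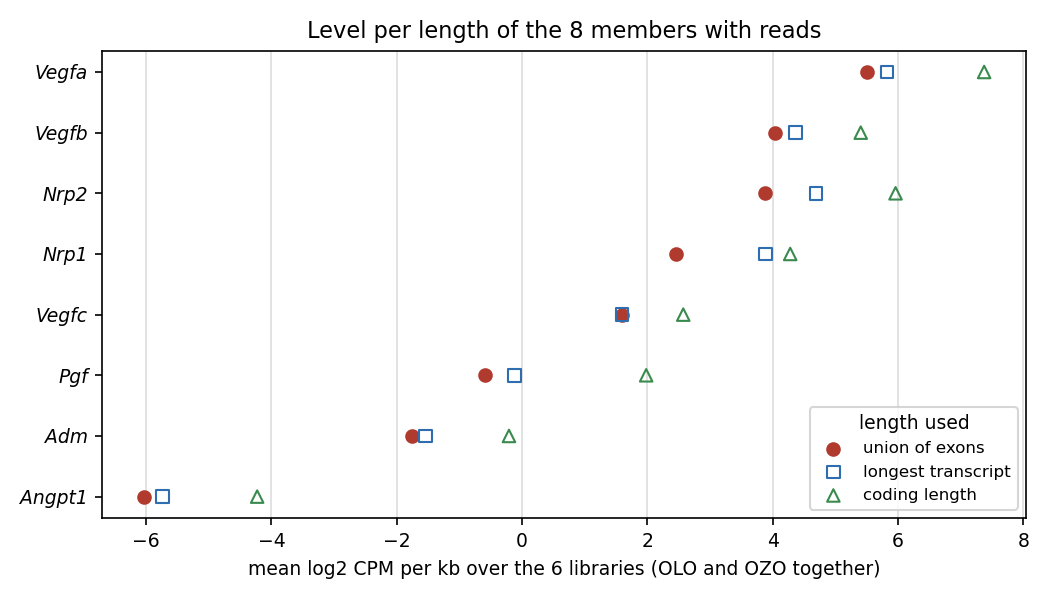
Mean log2 CPM per kb over the 6 libraries (x axis) of the 8 members with reads (rows), with the length taken as all exons (circles), the longest transcript (squares) or the coding part (triangles). Vegfa is highest with each length (5.51, 5.82 and 7.37), and Angpt1, which rests on a geometric mean of 1.07 reads per library, is lowest.

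In all, 6 of the 9 members (66.7%) reached 1 CPM, against 43.7% of the 27179 genes, and 20 of the 48 listed pathway genes that are not members (41.7%) did. The median of the members was 7.40 CPM and that of the 48 genes was 0.59 CPM. These counts are a description, since the members were not drawn at random. Among 11 other angiogenic ligands, 3 reached 1 CPM, namely Fgf1 (5.53 CPM), Pdgfa (4.07 CPM) and Efna1 (1.18 CPM). Fgf2, Hgf and Pdgfd each had 1 read in 2 libraries or 4 reads in 1 library, and Angptl4 had 1.74 reads per library. The last list held inhibitors of angiogenesis and also Vash2, which is not counted here as an inhibitor. Of its 6 genes, 4 reached 1 CPM, namely thrombospondin 1 (Thbs1) at 5.28 CPM, Vash1 at 3.69 CPM, Serpinf1 at 3.47 CPM and Vash2 at 1.61 CPM. Thbs2 had 1.07 reads per library. Col18a1 had 5.11 reads per library, with at least 23 reads in 1 library and at least 44 in all.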

How the data were processed

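RNA from B16F10 cells grown in DMEM with serum was made into 6 libraries with a strand-marking kit and sequenced by a company. According to the submitters' processing notes, reads were aligned to mm10 with HISAT2 (2.1.0) and counted with featureCounts (2.1.1), and limma (3.58.1) was run; the methods name limma-voom. The authors deposited, per gene, the mean log2 CPM over all libraries, which is used here, and their comparison of OZO with OLO (log2 fold change, moderated statistic, p-values and log odds). Beyond the choice of genes, that comparison was not used. No values of single libraries were used, so the test of OZO against OLO planned for them was not run. The study describes its B16F10 transcriptome data as coming from 3 independent experiments.

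Library size and products of reads were computed from that mean, and the calculation was tested on simulated counts. The depth of each library is unknown, and the mean carries no error. Exon, transcript and coding lengths came from GENCODE M21 (GRCm38) for 23882 genes, and promoter windows from RefSeq. The genes named were the 9 members, all 57 genes of 9 pathway lists and the 2 genes next to Vegfa in mean level. The 23 cell type markers were fixed as 5 lists. Members and lists were chosen with earlier results of these data known. Alternatives were limits of 0.1 and 10 CPM, other lengths, other sets of genes for ranks, and other motif windows. Python 3.11.15, numpy 2.4.6, pandas 2.3.3, scipy 1.17.1 and matplotlib 3.10.9 were used.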

Additional observations from a re-analysis of the deposited data

How the results depend on the processing

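No paired analysis was possible because only the mean over all libraries was used. For the same reason no library was left out, and another normalization, another test, another pseudocount and a filter were not run. The number of the 9 members at or above the limit was 6 at 1 CPM, 7 at 0.1 CPM and 4 at 10 CPM. For the 57 list genes it was 26 (45.6%) at 1 CPM, 41 (71.9%) at 0.1 CPM and 10 (17.5%) at 10 CPM, against 43.7%, 59.0% and 32.3% of all genes. The share of list genes was thus above that of all genes at 0.1 CPM and below it at 10 CPM, where 6 of the 48 list genes that are no members were counted (12.5%). ACGTG was held by 2 members in the whole window and by 1 before the start alone, against 21.8% and 18.5% of all genes. With GCGTG counted as well it was 7 in the whole window and 6 before the start, against 46.7% and 41.5%. Vegfa lay above 96.0% of all genes, 94.9% of genes with reads and 90.8% of genes with at least 1 CPM. Without division by length the order of the members was the same except that Vegfb fell below both neuropilins. For Adm, Angpt1 and Edn1, depth limits what can be said.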
